A study of Ovis aries with 6 samples.

Results

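The genes described here are 10 adipocyte identity genes, namely ADIPOQ, LEP, PLIN1, PLIN4, FABP4, CIDEA, CIDEC, LPL, PPARG and CEBPA, taken by gene symbol from the 23144 symbols of the count table. They were followed in the longissimus dorsi muscle, the main muscle of the back, of sheep of 2 breeds, 3 animals of the Qianhua Mutton Merino (QHMM) and 3 of the Small Tail Han (STH), with 1 library per animal and no treatment named. These were 1-year-old females kept in a common environment with unrestricted feed, weighed after a fast before slaughter. QHMM descends from South African Mutton Merino rams and Northeast Fine-wool ewes. The comparison was STH vs. QHMM throughout. The labelled tissue is muscle, with no fat sampled apart from it, so each library holds RNA of muscle fibres together with any fat cells between them. In such bulk tissue, fewer cells of a type and less RNA per cell cannot be told apart.

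Adipocytes are the cells that store triglyceride in a single large droplet, and those that lie between muscle fibre bundles make the marbling of meat. PPARG and CEBPA are the transcription factors that drive a precursor cell to become an adipocyte and then hold it in that state. Their targets include the lipase that brings fatty acids to the cell (LPL), the carrier that binds fatty acids inside it (FABP4), the proteins that coat the droplet and make it grow (PLIN1, PLIN4, CIDEA and CIDEC), and the hormones that mature fat cells secrete (ADIPOQ and LEP). These genes are not equally particular to fat. LPL and PLIN4 are also made by muscle fibres, and FABP4 also by the endothelium of small vessels and by macrophages.

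In STH, 4 of the 10 genes were down-regulated, ADIPOQ, LEP, PLIN1 and CIDEC, and 0 were up-regulated. Over all 12506 genes tested, 1.83% were down-regulated. A log2 fold change below 0 was found for 9 of the 10 genes and 48.2% of all, and an unadjusted p below 0.05 for 6 of the 10 and 19.2% of all. The 4 genes encode both hormones among the 10, adiponectin and leptin, and a pair of proteins of the large droplet. LEP, however, passed the filter for low counts only through the QHMM libraries, where it was high, and had 6 reads in STH. PLIN4 and FABP4 had nearly the same mean in both breeds, and CIDEA, LPL, PPARG and CEBPA had lower means in STH without passing the test. A gene was called at an FDR below 0.05 in edgeR's quasi-likelihood test, provided that the fold change (log2FC on the log2 scale, STH over QHMM) was at least 1.5 in either direction, the limits that the study set. The median log2 fold change was -1.84 over the 10 genes and 0.02 over all genes tested.

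The libraries held 10982191 to 14334544 counts on genes. Counts below were normalized by edgeR's TMM method, whose factors ranged from 0.852 to 1.20 and were lowest in QHMM replicate 2 and STH replicate 3, the libraries that also lay apart from the other 4 on the second principal component (19.1% of the variance). Of the 12506 genes tested, 432 (3.45%) were called, 203 up-regulated and 229 down-regulated in STH, against 212 and 134 with limma-trend on log2(RPKM + 1). Of 13 muscle fibre markers, 9 were listed under these symbols, and their summed level was 68742 to 109851 RPKM (reads scaled to gene length and library total) in the 6 libraries, where the 10 adipocyte genes summed to 94.1 to 469 RPKM. TNNT3, the fast skeletal troponin T, was listed at 0 in every library. That 0 is not read as absence of its RNA from the muscle, and the reason for it was not tested.

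ADIPOQ encodes adiponectin, a hormone that mature adipocytes release into the blood. QHMM replicates 1 to 3 held 3196, 1102 and 1672 normalized counts of it, and the STH replicates, in the same order as in all later sentences, held 461, 512 and 393. The lowest QHMM library was above the highest STH library. The mean fell from 1990.0 ± 1083 (SD, n = 3) to 455 ± 59.5 (SD, n = 3), with a log2FC of -2.13 (SE 0.36, FDR = 0.0143). The STH animals differed little from each other, whereas QHMM replicate 1 had 2.30 times the mean of the other QHMM libraries. With that library left out, ADIPOQ had a log2FC of -1.63 (SE 0.27, FDR = 0.0298) and was still called, and it was called with any 1 of the 6 libraries left out.

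LEP encodes leptin, the hormone by which fat tissue signals the size of its stores. It was the scarcest of the 10 genes, with 84, 11 and 24 reads in QHMM and 5, 0 and 1 in STH, or 119 reads against 6. The 0 of STH replicate 2 allows up to 0.273 CPM (counts scaled to the library total), the level of 3 reads in that library. After normalization the libraries had 75.0, 12.9 and 24.4 counts in QHMM and 4.13, 0 and 1.12 in STH, without overlap. The log2FC of -4.21 (SE 0.90, FDR = 0.0341) rests on 6 reads in STH, and was -5.82 without STH replicate 1, which held 5 of them. LEP passed the filter for low counts through the 3 QHMM libraries alone, which by itself favours a difference, and it lost its call without QHMM replicate 1 (-3.23, FDR = 0.107), QHMM replicate 3 (-4.45, FDR = 0.0631), STH replicate 2 (-3.73, FDR = 0.0795) or STH replicate 3 (-3.99, FDR = 0.0780).

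**Figure D1:**
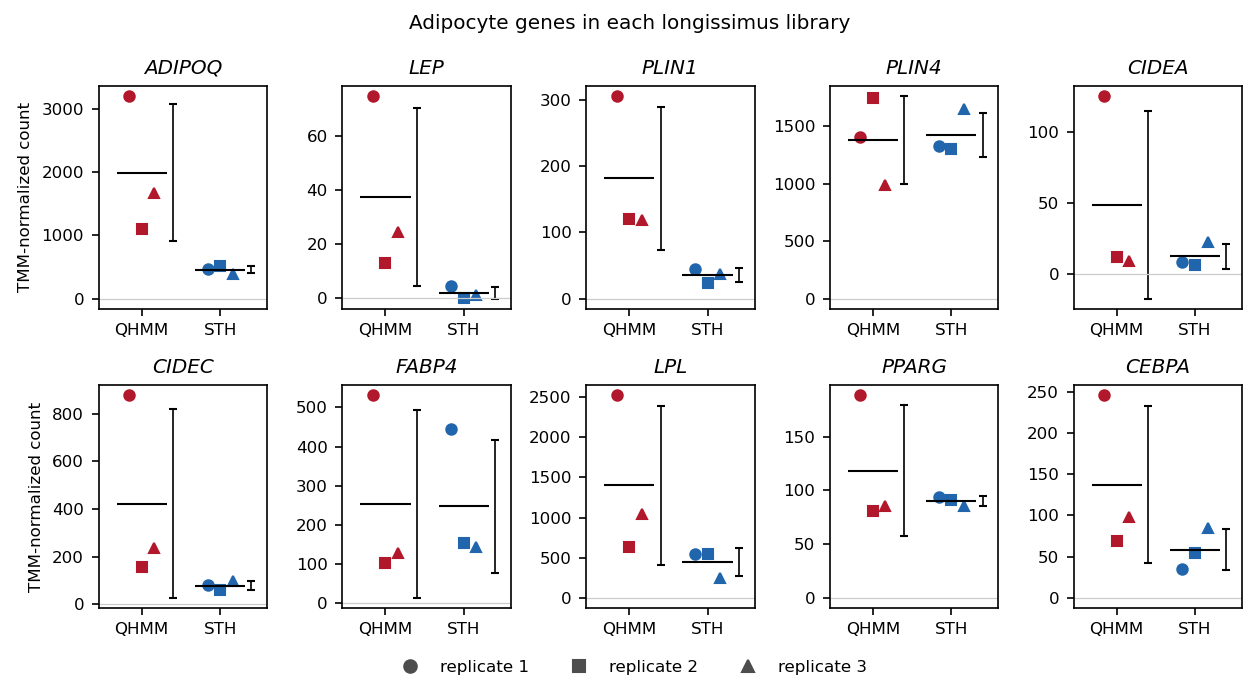
TMM-normalized counts of the 10 adipocyte genes (y axis, linear, 1 panel per gene) in QHMM (red) and STH (blue), where each symbol is 1 library, the horizontal line the mean and the bar ± 1 SD (n = 3). QHMM replicate 1 (circle) is the highest library in 9 of the 10 panels, the exception being PLIN4, and STH replicate 1 stands near it for FABP4 and PLIN4.

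PLIN1 encodes perilipin 1, the coat protein of the adipocyte droplet that gates the access of lipases to the fat. QHMM had 306, 121 and 119 normalized counts of it, and STH had 44.6, 23.5 and 37.0. As for ADIPOQ, the breeds did not overlap and QHMM replicate 1 was highest. PLIN1 fell from 182 ± 108 (mean ± SD, n = 3) to 35.0 ± 10.7 (n = 3), with a log2FC of -2.37 (SE 0.43, FDR = 0.0186). Without QHMM replicate 1 the value was -1.78 (SE 0.35, FDR = 0.0442). Of the 6 fits with 1 library left out, the call was lost without STH replicate 2, where the FDR was 0.0513.

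PLIN4, another perilipin, coats small droplets and is made in both fat and muscle. It had 1406, 1749 and 988 normalized counts in QHMM and 1325, 1306 and 1646 in STH, so that the STH libraries lay within the QHMM range. Its log2FC of 0.046 (SE 0.25, FDR = 0.946) was near 0, and the sign changed without QHMM replicate 3 (-0.14) or STH replicate 3 (-0.067). Per gene length, PLIN1 stood at 0.152 to 0.481 times the RPKM of PLIN4 in the QHMM libraries and at 0.0398 to 0.0743 times in the STH libraries. The ratio between the perilipins thus separated the breeds, as PLIN1 alone did. Since PLIN4 differed little between them, the ratio restates the PLIN1 difference and is not a further one.

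CIDEC, known in mice as Fsp27, sits where droplets touch and lets fat pass from the smaller to the larger one. CIDEC had normalized counts of 877, 156 and 236 in QHMM and 79.2, 58.8 and 96.4 in STH, again without overlap. It fell from 423 ± 396 (mean ± SD, n = 3) to 78.1 ± 18.8 (n = 3), with a log2FC of -2.44 (SE 0.56, FDR = 0.0438). QHMM replicate 1 held 4.49 times the mean of the other QHMM libraries. Without it the log2FC was -1.35 (SE 0.32, FDR = 0.0865), and the call was also lost without QHMM replicate 3 (FDR = 0.0578), STH replicate 1 (FDR = 0.0721), STH replicate 2 (FDR = 0.128) or STH replicate 3 (FDR = 0.0769). With all 6 libraries, CIDEC also lost its call with robust dispersions (FDR = 0.110) and with limma-trend on log2(RPKM + 1) (FDR = 0.106) or log2(RPKM + 0.1) (FDR = 0.104).

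CIDEA, its paralog, is best known from brown fat, where it helps to form droplets. QHMM replicate 1 had 140 reads of it, and the other 5 libraries had 6 to 20, so that 3 libraries exceeded the filter for low counts. After normalization it had 125, 11.7 and 9.14 in QHMM and 8.25, 6.41 and 22.4 in STH, a difference of -2.01 on the log2 scale (SE 0.92, FDR = 0.266) that was not past the threshold. Without QHMM replicate 1 the sign turned, to 0.21 (SE 0.69, FDR = 0.921). Of 10 thermogenic fat markers, 6 were listed under their symbols and 1 (CITED1) passed the filter for low counts, with a log2FC of 0.90 (SE 0.53, FDR = 0.395). UCP1, COX8B, TBX1 and EVA1 were not listed, so their levels are not known. The summed level of the 6 was 2.34 to 2.80 CPM in QHMM and 2.86 to 5.10 in STH, and was lowest in QHMM replicate 1. Each of these genes lay near the floor, at 0 to 29.7 normalized counts per library, too few to order the QHMM libraries.

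LPL encodes lipoprotein lipase, the enzyme on the capillary wall that frees fatty acids from circulating triglyceride for fat and muscle alike. It had 2522, 637 and 1041.5 normalized counts in QHMM and 547, 539.5 and 243 in STH. The breeds were apart by a narrow margin, with QHMM replicate 2 closest to STH replicates 1 and 2. The log2FC was -1.66 (SE 0.48, FDR = 0.0851) and missed the threshold, which DESeq2 (-1.67, FDR = 0.00295) and the edgeR fit without a filter for low counts (-1.67, FDR = 0.0162) did pass. Without QHMM replicate 1 it was -0.94 (SE 0.37, FDR = 0.249). On the deposited RPKM values, which carry no TMM factor, the breeds overlapped for LPL, since QHMM replicate 2 had 25.8 RPKM and STH replicate 1 had 31.1.

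FABP4, the fatty acid binding protein of adipocytes, had no breed difference past the threshold. QHMM had normalized counts of 531, 101 and 128, and STH of 444, 154 and 141. One library of each breed was high and the other 4 were low, and the means of 253 ± 241 (mean ± SD, n = 3) and 246 ± 171 (n = 3) were close. The log2FC of -0.040 (SE 0.61, FDR = 0.980) had a wide error and became 1.09 (SE 0.49, FDR = 0.316) without QHMM replicate 1. STH replicate 1 therefore had much FABP4 but little ADIPOQ, with 6.15 times as many RPKM of FABP4 as of ADIPOQ, where the QHMM libraries had 0.489 to 1.06 and the other STH libraries 1.92 and 2.29.

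Other cell types can carry FABP4, and their marker lists were read in the same libraries. Of 12 endothelial markers, 8 were listed and tested, with a summed level of 679 to 732 CPM in QHMM and 732.5 to 851 in STH, highest in STH replicate 1. VWF and PECAM1, the largest parts of that sum, were highest there, as were EMCN and ERG. CDH5 and ESAM were highest in QHMM replicate 1, and ROBO4 and EGFL7 in QHMM replicate 2. Of 12 macrophage markers, 11 were listed and tested, with 191 to 205 CPM in QHMM and 102 to 243 in STH, again highest in STH replicate 1. In QHMM replicate 1, where FABP4 was also high, these lists had 732 and 201 CPM. No gene of either list was called by edgeR, with 1 of each list at an unadjusted p below 0.05. DESeq2 also called 0 in both, and edgeR called 1 macrophage gene without STH replicate 1. The smallest FDR among the endothelial markers was that of EMCN (0.67, SE 0.27, FDR = 0.203) and ERG (0.54, SE 0.29, FDR = 0.344), and among the macrophage markers that of AIF1 (-0.80, SE 0.29, FDR = 0.166) and CD14 (0.56, SE 0.27, FDR = 0.284). The part of these cells in the FABP4 counts was not tested.

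PPARG is the nuclear receptor that commands the adipocyte programme and is switched on by fatty acids. It had 188, 80.8 and 85.3 normalized counts in QHMM and 94.1, 90.8 and 85.2 in STH. Apart from QHMM replicate 1 the libraries lay close together, and the coefficient of variation in STH was 5.01%. The log2FC was -0.40 (SE 0.34, FDR = 0.574), and without QHMM replicate 1 it was 0.094 (SE 0.29, FDR = 0.913).

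CEBPA encodes the factor that works with PPARG and that sustains insulin sensitivity of the fat cell. It had 245, 69.1 and 97.4 normalized counts in QHMM and 35.5, 54.5 and 85.2 in STH, so that STH replicate 3 was above QHMM replicate 2. Its log2FC of -1.25 (SE 0.48, FDR = 0.184) missed the threshold and became -0.54 (SE 0.40, FDR = 0.569) without QHMM replicate 1. Neither transcription factor was thus called, although 4 genes known as their targets were. Whether the factors and the targets differed in their change was not tested.

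**Figure D2:**
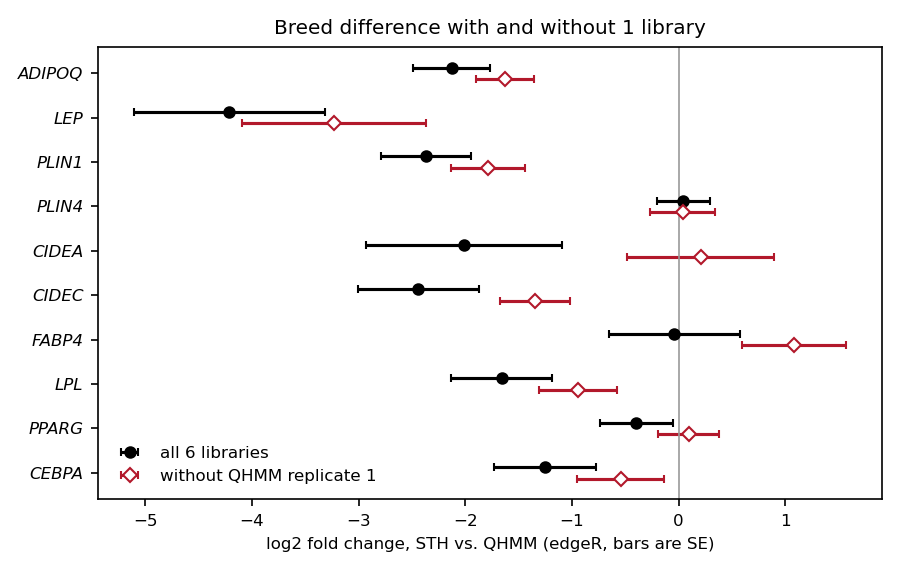
Log2 fold change of the 10 adipocyte genes in STH vs. QHMM (x axis, edgeR, bars are SE) with all 6 libraries (black circles) and without QHMM replicate 1 (red diamonds). ADIPOQ and PLIN1 keep their call without that library, at -1.63 and -1.78, while CIDEA, FABP4 and PPARG pass to the other side of 0.

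QHMM replicate 1 was the highest of the 6 libraries for 9 of the 10 genes, PLIN4 being the exception, where it was highest for 16% of all genes tested. Its excess over the mean of QHMM replicates 2 and 3 ran from 1.03 times for PLIN4 and 2.27 times for PPARG to 4.65 times for FABP4, and was larger still for CIDEA. Relative to the mean, the variation between libraries was larger in QHMM than in STH for 9 of the 10 genes and 44.2% of all genes tested. The exception was LEP, whose STH value rests on 5, 0 and 1 reads. The median coefficient of variation was 69.9% in QHMM and 34.8% in STH for the 10 genes, where it was 20.7% and 23.9% for all genes tested. Without QHMM replicate 1, 2 of the 10 genes were called (ADIPOQ and PLIN1), when 1.03% of all genes were, and the median log2FC of the 10 was -0.74.

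The mean of QHMM was at least 2 times that of STH for 7 of the 10 genes and for 5.63% of all genes. The remaining QHMM animals were read against STH in the same way. The mean of QHMM replicates 2 and 3 was 3.05 times the STH mean for ADIPOQ, 3.42 times for PLIN1, 2.50 times for CIDEC, 1.89 times for LPL and 1.43 times for CEBPA, and 10.6 times for LEP with its few reads. For CIDEA, PPARG, PLIN4 and FABP4 it was lower than the STH mean, at 0.843, 0.922, 0.960 and 0.464 times. In 5 of the 10 genes (ADIPOQ, LEP, PLIN1, CIDEC and LPL) the breeds did not overlap on normalized counts, as for 24.7% of all genes tested, and in 4 of the 10 on RPKM, without LPL, as for 23.3% of genes.

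**Figure D3:**
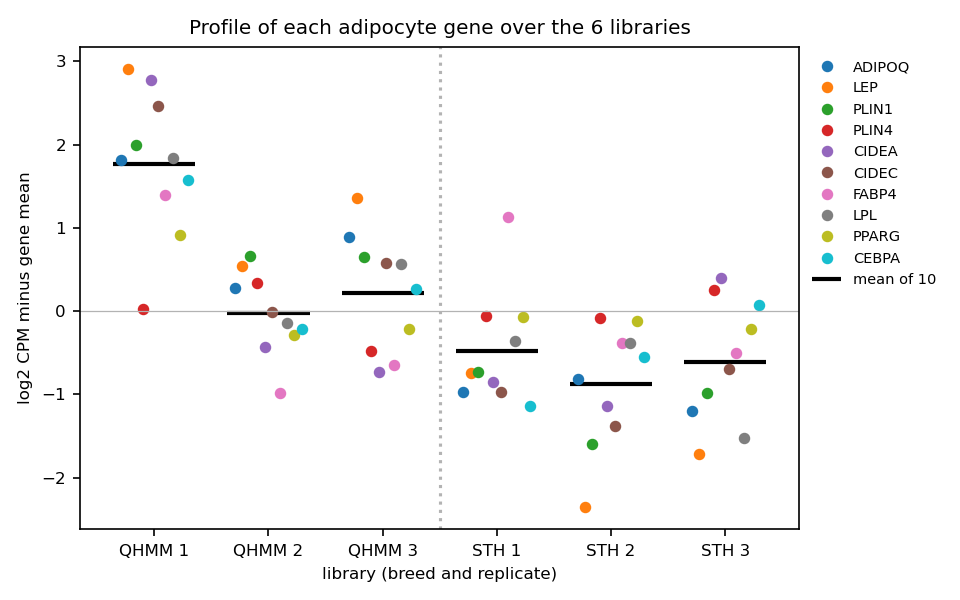
Level of each adipocyte gene in each library as log2 CPM minus the mean of that gene over the 6 libraries (y axis), where points are genes and black bars the mean of the 10 genes. QHMM replicate 1 lies at a mean of 1.77, the other QHMM libraries near 0, and the STH libraries between -0.88 and -0.48, with FABP4 in STH replicate 1 far above that.

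On the centred log2 scale of this plot, the 10 genes had means of 1.77, -0.03 and 0.22 in QHMM and -0.48, -0.88 and -0.61 in STH. The pair with the most similar profiles was PLIN1 and CIDEC, which differed by a root mean square of 0.38 over the 6 libraries, followed by ADIPOQ and PLIN1 and by ADIPOQ and LPL, both at 0.40. LEP and PLIN4 were the least alike, at 1.88. The points share libraries and normalization, so these are descriptions without a test. The ratio of CIDEC to PLIN1 in RPKM stayed between 1.49 and 3.31 in all 6 libraries, and that of LPL to ADIPOQ between 0.907 and 1.86, while the ratio of CIDEC to CIDEA ran from 2.30 to 13.8.

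Per gene length, the most abundant of the 10 genes were FABP4, LPL, ADIPOQ and PLIN4, with means of 50.9, 44.5, 37.1 and 34.1 RPKM over the 6 libraries. Their order was not fixed, since FABP4 exceeded LPL in 3 of 6 libraries, LPL exceeded ADIPOQ in 3 and ADIPOQ exceeded PLIN4 in 2. CIDEC followed with 15.7 RPKM, below PLIN4 in 5 of 6 libraries and above PLIN1 in all 6. PLIN1 (5.82 RPKM), PPARG (5.70 RPKM), CEBPA (4.49 RPKM) and CIDEA (3.55 RPKM) made a lower group, in which PLIN1 exceeded PPARG in 3 of 6 libraries. LEP was lowest, with 0.520 RPKM. The rank of FABP4 rests on the length of 399 bases that its counts and RPKM values imply, the shortest of the 10.

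The order differed between the breeds. In QHMM, LPL (66.0 ± 49.5 RPKM, mean ± SD, n = 3) and ADIPOQ (59.5 ± 35.3 RPKM) came first, and in STH, FABP4 (53.0 ± 43.4 RPKM) and PLIN4 (36.1 ± 2.36 RPKM). ADIPOQ stood at rank 2 in QHMM and at rank 4 in STH, with 14.7 ± 3.90 RPKM. CIDEC and PLIN1 stood at ranks 5 and 6 in QHMM and at ranks 6 and 8 in STH, after PPARG and after CEBPA. LEP was last in both breeds. Neighbours in these orders overlapped within 1 SD, except in STH for ADIPOQ above PPARG, CIDEC above CEBPA and CIDEA above LEP.

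Genes that work beside the 10 were read from lists by role, where 1.62% of all genes tested were up-regulated and 1.83% down-regulated in STH, and 19.2% had an unadjusted p below 0.05. Among 14 other adipokines and receptors, 7 were tested, 1 was down-regulated and 1 was up-regulated in STH, and the median log2FC was -0.055. RBP4, the retinol carrier that fat and liver secrete, fell with a log2FC of -1.50 (SE 0.34, FDR = 0.0406). The adipokine genes CFD (-0.055, SE 0.27, FDR = 0.938) and RARRES2 (-0.31, SE 0.24, FDR = 0.528) were not called, and neither was highest in QHMM replicate 1. ADIPOR2, a receptor for adiponectin, rose with 1.71 (SE 0.36, FDR = 0.0314), from 1002 ± 492 to 3272 ± 895 normalized counts. The adiponectin gene and this receptor gene thus moved in opposite directions between the breeds, while ADIPOR1, the other receptor, had 0.013 (SE 0.22). Both calls were lost without replicate 1 or 3 of QHMM or replicate 2 or 3 of STH.

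Among 17 other droplet and lipolysis genes, 11 were tested, 1 was called, against 3.45% of all genes, and the median was 0.0068. That gene was PLIN2, the perilipin of muscle and most other cells, which rose with a log2FC of 1.63 (SE 0.30, FDR = 0.0193). PLIN2 counts, after normalization, lay at 196 to 272 in QHMM and at 437 to 959 in STH, the opposite order to PLIN1. Its call was lost without any 1 of the QHMM libraries or STH replicate 2. DESeq2 called 3 genes of the list, but it also called more over all genes, 975 where edgeR called 432.

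Among 17 genes of fatty acid uptake and partners of LPL, 14 were tested, 2 were up-regulated, against 1.62% of all genes, and the median was 0.18. ANGPTL4, a secreted inhibitor of lipoprotein lipase, rose with a log2FC of 2.13 (SE 0.50, FDR = 0.0450), from a mean of 188 ± 149 (SD, n = 3) to one of 821 ± 351 (SD, n = 3). FABP5, the fatty acid binding protein of skin that fat cells and macrophages also make, rose with 1.79 (SE 0.28, FDR = 0.0114). LPL and its inhibitor therefore stood in opposite order, with LPL lowest and ANGPTL4 highest in the same library, STH replicate 3, and the reverse in QHMM replicate 1. FABP5 was called with any 1 library left out. ANGPTL4 lost its call without replicate 1 or 3 of QHMM or replicate 2 or 3 of STH, and its log2FC was 3.01 without QHMM replicate 2.

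The list of fat and triglyceride synthesis had more called genes than the others. All 21 genes were tested, 8 were down-regulated and 2 up-regulated in STH, against 1.83% and 1.62% of all genes, and the median was -1.63. ELOVL6, which lengthens palmitate, fell with a log2FC of -5.37 (SE 1.26, FDR = 0.0459). SCD, the stearoyl-CoA desaturase, fell with -4.78 (SE 0.76, FDR = 0.0123), and THRSP, a lipogenic nuclear protein of fat, with -4.16 (SE 0.92, FDR = 0.0397). LPIN1 (1.92, SE 0.37, FDR = 0.0239), a phosphatidate phosphatase, and ACACB (1.73, SE 0.31, FDR = 0.0186), the mitochondrial acetyl-CoA carboxylase of muscle, rose. ELOVL6 had 1035 normalized counts in QHMM replicate 1, 26.9 and 64.0 in the other QHMM libraries and fewer in each STH library. SCD had 5180 normalized counts in QHMM replicate 1 against 726 and 1088 in the other QHMM libraries, and THRSP 813 against 107 and 153. The library with the highest adipocyte genes was thus highest for these genes too. It was not for every called gene. GPD1 had 15778 normalized counts in QHMM replicate 1 against 23413 and 17999 in the other QHMM libraries, and SREBF1 645 against 876 and 680. Without QHMM replicate 1 the log2FC was -2.36 for ELOVL6 (SE 0.57, FDR = 0.0869), -3.44 for SCD (SE 0.43, FDR = 0.0123) and -2.71 for THRSP (SE 0.71, FDR = 0.101). SCD was thus still called, as with any other library left out. ELOVL6 also lost its call without any 1 of the STH libraries, and THRSP without QHMM replicate 3 or replicate 1 or 2 of STH, while its log2FC was -5.62 without STH replicate 3. LPIN1 lost its call without replicate 1 or 3 of QHMM or replicate 2 of STH, and ACACB without any 1 of the QHMM libraries. In the fits with 1 library left out, 3 to 9 genes of the list were called, the fewest without STH replicate 2, and 5 without QHMM replicate 1.

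Among 28 other adipogenic regulators, 22 were tested, 3 were up-regulated, against 1.62% of all genes, 0 were down-regulated and the median was 0.11. CEBPD, an early factor that precedes CEBPA in adipogenesis, rose with a log2FC of 3.12 (SE 0.59, FDR = 0.0213), the direction opposite to the mean of CEBPA. STAT5A rose with 2.61 (SE 0.49, FDR = 0.0216), and KLF15, which is also induced by glucocorticoids, with 1.46 (SE 0.26, FDR = 0.0182). At an unadjusted p below 0.05, 9 of the 22 passed, against 19.2% of all genes. DESeq2 called 7 of the list, with 975 called over all genes. Without any 1 of the QHMM libraries, 1 of these genes was called, and 6 genes of the list were called without STH replicate 1. The log2FC of CEBPD was 3.77 without QHMM replicate 1, and that of STAT5A was 1.81 without STH replicate 2.

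**Figure D4:**
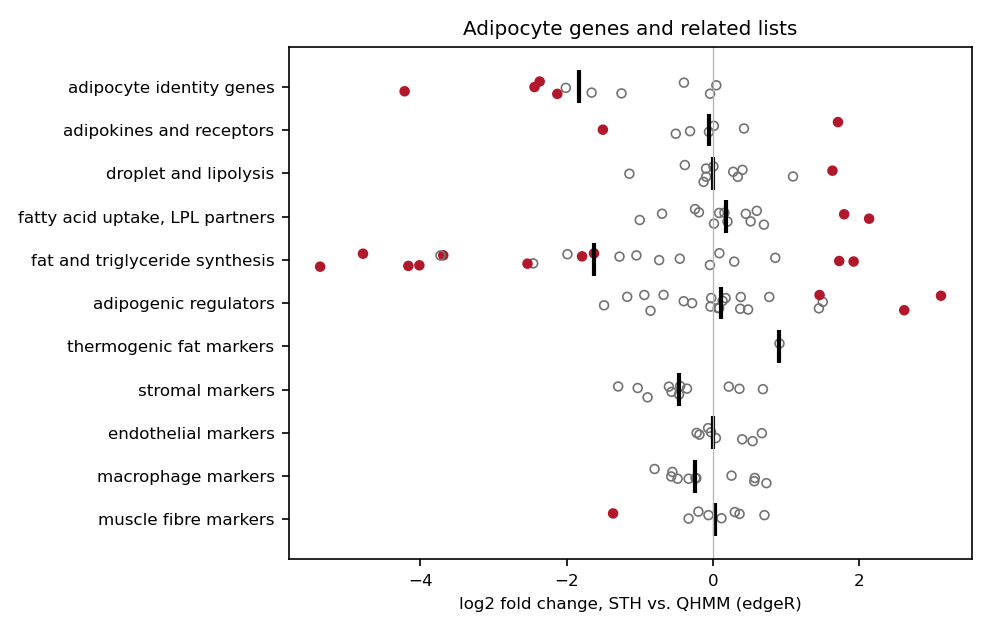
Log2 fold change in STH vs. QHMM (x axis, edgeR) of each tested gene (circles, filled where called) in the adipocyte list and in 10 related lists (y axis), with the median of each list as a black bar. The adipocyte genes and the genes of fat and triglyceride synthesis have medians of -1.84 and -1.63, and the other medians lie between -0.46 and 0.90, where 0.90 is the value of a single thermogenic gene.

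Stromal genes, which mark the fibroblasts and fat progenitors between the fibres, were read as the tissue around the adipocytes. Of 13, 11 were tested, 0 were called by edgeR and the median was -0.46. An unadjusted p below 0.05 was found for 4, against 19.2% of all genes. DESeq2 called 2 of the list, with 975 called over all genes, and edgeR called 1 without STH replicate 1. THY1 had a log2FC of -1.03 (SE 0.28, FDR = 0.0739) and COL1A1 of -1.30 (SE 0.41, FDR = 0.113). The summed level was 1834, 1329 and 1927 CPM in QHMM and 1433, 718 and 1002 in STH. The summed level of QHMM replicate 1, which stood out for the adipocyte genes, was thus below that of QHMM replicate 3. COL1A1, the largest part of both sums, had that order (8546 and 11160 normalized counts), as did DCN (3657 and 5145). FBN1 (4458 and 2616) and LUM (1475 and 716) had the reverse order. Of the muscle fibre markers, 8 were tested with a median of 0.027, and TNNT1, the slow troponin T, was the only one called (-1.37, SE 0.27, FDR = 0.0240). That call was lost without any 1 of the QHMM libraries or STH replicate 2. The part of the tissue composition in the adipocyte results was not tested.

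Genes with the profile most like the mean of the 10 were ranked among 11263 other genes by the root mean square difference of centred log2 CPM over the 6 libraries. The 10 closest were IGSF3 (0.20), RET (0.20), MYO16 (0.23), ARHGAP28 (0.24), RBP4 (0.26), HSPA1L (0.28), LIMA1 (0.29), CDC42EP2 (0.30), XPNPEP2 (0.33) and PLEK (0.33). CEBPA, the closest of the 10 adipocyte genes themselves, was at 0.43, and 50 other genes lay nearer to the mean. Closest to ADIPOQ alone were COL11A2 (0.18), XPNPEP2 (0.18), TUSC5 (0.30), LOC101106865 (0.34) and EPHB2 (0.35). TUSC5 encodes a membrane protein of adipocytes that takes part in insulin-driven glucose uptake. With 6 libraries, many genes take like profiles, so the ranking describes likeness and nothing more.

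Reads on overlapping genes could touch a few of these values, since neither the strand setting nor the way the authors counted such reads is given in the sources used here. In the RefSeq genes of a later sheep assembly (ARS-UI_Ramb_v3.0), in which all 10 symbols were found, PLIN1 overlaps PEX11A, PLIN4 overlaps HDGFL2, CIDEC overlaps JAGN1, and PPARG overlaps LOC132658193. PEX11A had 22.3 to 35.5 normalized counts in 5 libraries and 12.3 in STH replicate 3, with a log2FC of -0.52 (SE 0.42, FDR = 0.551). JAGN1 had 98.2 to 127 normalized counts, with 0.060 (SE 0.24, FDR = 0.924). HDGFL2 and LOC132658193 were not analysed here, and the part of shared reads in the values of the 10 genes was not tested.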

How the data were processed

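Poly(A)-containing RNA of 6 libraries was read on an Ion Proton instrument. The authors filtered the reads, mapped them to the sheep genome (Oar v3.1), kept unique mapped reads and deposited raw counts per gene. The authors also deposited RPKM values, which scale these counts by gene length and library total. The aligner, counter and annotation release are not given in the sources used here, and the tables hold no chromosome positions. In the RPKM table, 25 rows whose names matched no counted gene were left out.

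The 10 genes and all lists were chosen with earlier results of these data known, so their counts and medians are descriptions. Counts were tested in R 4.3.3 with edgeR 4.0.16 (filterByExpr, TMM, glmQLFit and glmQLFTest, two-sided, breed as the only term), with Benjamini-Hochberg adjustment over 12506 genes. The study's own test, EBSeq, was not run. The SE was obtained from the log2 fold change and the F statistic. DESeq2 1.42.0 and limma 3.58.1 (limma-trend on log2(RPKM + 1) or log2(RPKM + 0.1), genes with at least 1 RPKM in at least 3 libraries) served as alternatives, beside others of normalization, filter, dispersion, block and left-out libraries. The methods were tested on a single set of simulated counts, in which 194 of the 12264 genes tested by edgeR had been changed. Limma was given CPM in place of RPKM. There, 9.01% of the calls were false with edgeR, 12.5% with DESeq2 and 5.83% with limma, all above the FDR limit of 0.05. Of the simulated 2-fold changes, edgeR recovered 16.3%, DESeq2 25.5% and limma 15.5%, while edgeR recovered 88.5% of the larger ones. With so few changed genes these shares are rough, and whether they exceed the limit beyond sampling error was not tested. Calls with an FDR close to 0.05 may be less certain than that limit implies, and a missing call does not exclude a 2-fold change. Plots were drawn with matplotlib 3.10.9.

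From each list, every called gene was named. With more than 6 called, the 3 with the largest absolute log2 fold change in each direction were named, and with 0 called the 2 with the smallest FDR. ADIPOR1, CFD, RARRES2, PEX11A, JAGN1, GPD1, SREBF1, DCN, FBN1, LUM, VWF, PECAM1, CDH5, ESAM, ROBO4 and EGFL7 were named after their values were seen. The likeness ranking covered genes with a mean of at least 20 normalized counts (log2 with a prior count of 2). The limit given for a count of 0 covers counting error only, and SDs and SEs include the spread between animals. The smallest exact permutation p of a single gene in this design would be 0.1. None of the 6 pairs of libraries of the same breed agreed within sampling noise.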

Additional observations from a re-analysis of the deposited data

How the results depend on the processing

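The number of genes called over the whole table was 432, and it became 975 with DESeq2, 806 without a filter on low counts, 78 with limma-trend on log2(RPKM + 1) without a filter and 11 without QHMM replicate 2 and STH replicate 3 together. With 1 library left out it was 131 to 535. Of the 10 adipocyte genes, 4 were called, against 2 with limma-trend on log2(RPKM + 1), 2 on log2(RPKM + 0.1), 0 on log2(RPKM + 1) without a filter (limma, 4 with an unadjusted p below 0.05) and 0 without QHMM replicate 2 and STH replicate 3 together (edgeR, 6 of 9 tested with an unadjusted p below 0.05). It was 1 to 4 with 1 library left out, namely 1 when STH replicate 2 was missing and 2 when replicate 1 or 3 of QHMM or replicate 3 of STH was.

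Signs turned for genes that were not called. PLIN4 went to -0.14 without QHMM replicate 3 and to -0.067 without STH replicate 3. FABP4 went to 0.15 with the replicate block, 0.27 with limma-trend on log2(RPKM + 1) with or without a filter, 0.28 on log2(RPKM + 0.1), 1.09 without QHMM replicate 1, 0.19 without STH replicate 2 and 0.24 without STH replicate 3. CIDEA went to 0.21 and PPARG to 0.094 without QHMM replicate 1. With 1 library left out, PLIN4 ranged from -0.14 to 0.26, FABP4 from -0.80 to 1.09, CIDEA from -2.72 to 0.21 and PPARG from -0.60 to 0.094. The cause was not tested. Of 185 values over the 10 genes, 151 kept their sign and side of the threshold, 21 lost the call, 2 gained it and 11 turned.

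The labels do not say whether the replicate numbers pair the samples. The deviations of same-numbered libraries correlated at 0.23, -0.04 and -0.13, and those of differently numbered libraries at -0.26 to 0.29. With so few libraries these values cannot settle a pairing, which was not tested. With the number as a block, 457 genes and the same 4 of the 10 adipocyte genes were called, and 3 droplet, 6 regulator and 2 stromal genes where 1, 3 and 0 had been. Depth limits LEP and CIDEA most, and neither could be tested with at least 10 counts required in every library.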
